A study of Mus musculus with 8 samples.

Results

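The stefins and cystatins are protein inhibitors of the papain-like cysteine proteases, and 7 of their genes were followed here in mouse granulocyte-macrophage progenitors: the stefin A family genes Stfa1, Stfa2, Stfa2l1 and Stfa3, the stefin B gene Cstb, the cystatin C gene Cst3 and the cystatin F gene Cst7. Members were all probes of the deposited intensity table whose platform symbol was on that list. They came to 6 probes, 1 for each of 6 genes, out of 25697 probes on the array, and no probe carried the symbol Stfa2l1. The groups were 4 arrays of progenitors from SSB1 SSB2 KO mice (DKO) and 4 arrays of progenitors from WT mice (control), all from female C57BL/6 animals. Cells were sorted as lineage-low, c-Kit+, Sca-1-, CD34-high and CD16/32-high, and their RNA was hybridised in 1 colour to Illumina BeadArrays of the MouseRef-8 v2.0 design. Nabp2 encodes Ssb1 and Nabp1 encodes Ssb2, both of which bind single-stranded DNA. The comparison asks how expression in these progenitors differs when both are lost. The labels leave out the targeted alleles, how and when deletion was induced, and the age of the mice. Nothing states that each array stands for its own mouse, and p-values therefore reflect the variation among these arrays, technical variation included.

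Stefins are small intracellular inhibitors without a signal peptide, while the cystatins proper are made with a signal peptide and are secreted or delivered to endosomes and lysosomes. Both kinds wedge a conserved loop into the active site of cathepsins such as B, H, L and S. Humans have a lone stefin A gene, CSTA, whereas the mouse carries a cluster of related genes on chromosome 16, several of which are known as transcripts of maturing neutrophils. Cystatin C is abundant in macrophages and dendritic cells, and cystatin F is made by haematopoietic cells and acts on cathepsins C and L inside the endolysosomal system.

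The sequences just upstream of the stefin A family genes are shown first, because the cluster holds both a member detected on the DKO arrays alone and members that no array detected, and those of Cst3 and Cst7 because both members were lower in DKO. Each is the 250 bases before the annotated start of the gene, 5′ to 3′ on the strand of the gene, from RefSeq on GRCm38.p6. Capitals mark matches on either strand to the PU.1 core GAGGAA or to the C/EBP pattern TTGCNNAA, factors of the myeloid lineage. None of these windows held TATAAA on either strand.
Stfa1, chr16:36276898-36277147, plus strand: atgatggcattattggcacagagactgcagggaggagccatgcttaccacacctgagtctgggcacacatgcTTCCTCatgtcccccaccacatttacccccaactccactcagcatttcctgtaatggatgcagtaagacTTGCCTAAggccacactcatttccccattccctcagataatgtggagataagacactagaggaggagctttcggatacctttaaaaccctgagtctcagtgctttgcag
Stfa2, chr16:36408364-36408613, minus strand: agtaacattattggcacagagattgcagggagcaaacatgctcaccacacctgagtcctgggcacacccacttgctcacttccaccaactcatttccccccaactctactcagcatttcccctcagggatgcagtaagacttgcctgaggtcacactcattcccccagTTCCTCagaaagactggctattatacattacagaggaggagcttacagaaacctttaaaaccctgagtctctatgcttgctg
Stfa2l1, chr16:36156561-36156810, plus strand: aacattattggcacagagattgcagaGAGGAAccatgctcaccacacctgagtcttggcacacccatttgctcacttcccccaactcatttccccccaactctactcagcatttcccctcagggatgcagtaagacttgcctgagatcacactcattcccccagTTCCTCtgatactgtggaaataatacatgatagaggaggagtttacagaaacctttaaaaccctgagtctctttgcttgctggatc
Stfa3, chr16:36455393-36455642, minus strand: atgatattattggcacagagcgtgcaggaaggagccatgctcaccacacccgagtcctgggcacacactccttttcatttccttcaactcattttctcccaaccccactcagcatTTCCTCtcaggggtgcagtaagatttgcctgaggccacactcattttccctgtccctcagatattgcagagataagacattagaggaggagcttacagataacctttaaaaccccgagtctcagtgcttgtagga
Cst3, chr2:148875513-148875762, minus strand: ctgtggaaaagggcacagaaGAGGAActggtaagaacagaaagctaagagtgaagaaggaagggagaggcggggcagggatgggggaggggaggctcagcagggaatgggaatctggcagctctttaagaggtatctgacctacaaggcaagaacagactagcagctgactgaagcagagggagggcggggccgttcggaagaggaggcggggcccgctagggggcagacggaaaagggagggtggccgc
Cst7, chr2:150570165-150570414, plus strand: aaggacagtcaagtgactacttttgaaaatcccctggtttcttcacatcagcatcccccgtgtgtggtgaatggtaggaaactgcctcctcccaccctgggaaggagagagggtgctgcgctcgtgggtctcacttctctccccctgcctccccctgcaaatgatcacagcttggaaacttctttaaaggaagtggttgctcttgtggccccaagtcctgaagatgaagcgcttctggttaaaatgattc

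The Stfa1 and Stfa3 windows were identical at 83.5% of aligned positions, Stfa1 and Stfa2 at 81.0%, and Stfa1 and Stfa2l1 at 80.9%. The Cst3 and Cst7 windows matched at 46.6%, and Stfa1 and Cst3 at 44.4%. The Stfa1, Stfa2 and Stfa3 windows each held 1 match to GAGGAA, read on the opposite strand as TTCCTC, ending 173, 77 and 130 bases before the start. Stfa2l1 held 2 matches, 1 on its own strand ending 219 bases before the start and 1 on the opposite strand ending 81 bases before it. Cst3 held 1 match on its own strand, and Cst7 held 0. Among the 6 windows printed, TTGCNNAA was matched in Stfa1 alone, as TTGCCTAA from 109 to 102 bases before the start. Of 32851 promoter windows of this length, 23.3% held GAGGAA, 9.56% TTGCNNAA and 12.4% TATAAA, on either strand. The pattern letters were chosen for this description, and a match is not evidence of binding. Cstb was not matched in the promoter table.

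Across the arrays, the mean raw intensity ran from 380 to 736 and the number of probes with a detection p-value under 0.05 from 9774 to 11227, both lowest on DKO 1. The Nabp2 probe with the higher mean was 3.20-fold lower in DKO and its other probe 1.33-fold, the latter not past the threshold, and the Nabp1 probe was detected on 0 of 8 arrays and checks nothing. Where these probes lie relative to the deleted parts is not known here. A probe was tested if it was detected on at least 4 of the 8 arrays, which left 10856 probes, and 4 of the 6 member probes. In the whole-array limma fit, 10.4% of tested probes were higher in DKO and 12.4% lower at an adjusted p under 0.05. Quantile normalization gave 1125 higher and 1344 lower probes. Median alignment instead gave 148 higher and 2335 lower ones, with the median difference of all tested probes at -0.40 in log2 units.

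Of the 4 tested member probes, 1 was higher in DKO against a background of 10.4%, 2 were lower against 12.4%, and 1 did not pass. The higher probe was Stfa1 and the lower ones were Cst3 and Cst7, while Cstb did not pass. Stfa1 entered the test through its 4 DKO arrays alone, so its place among the tested probes already required a higher signal there. The groups did not overlap for 3 of these 4 probes, against 27.6% of all tested probes. Differences are given below as DKO minus control in normalized log2 units, each with its moderated standard error, SE, from 4 arrays per group.

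**Figure D1:**
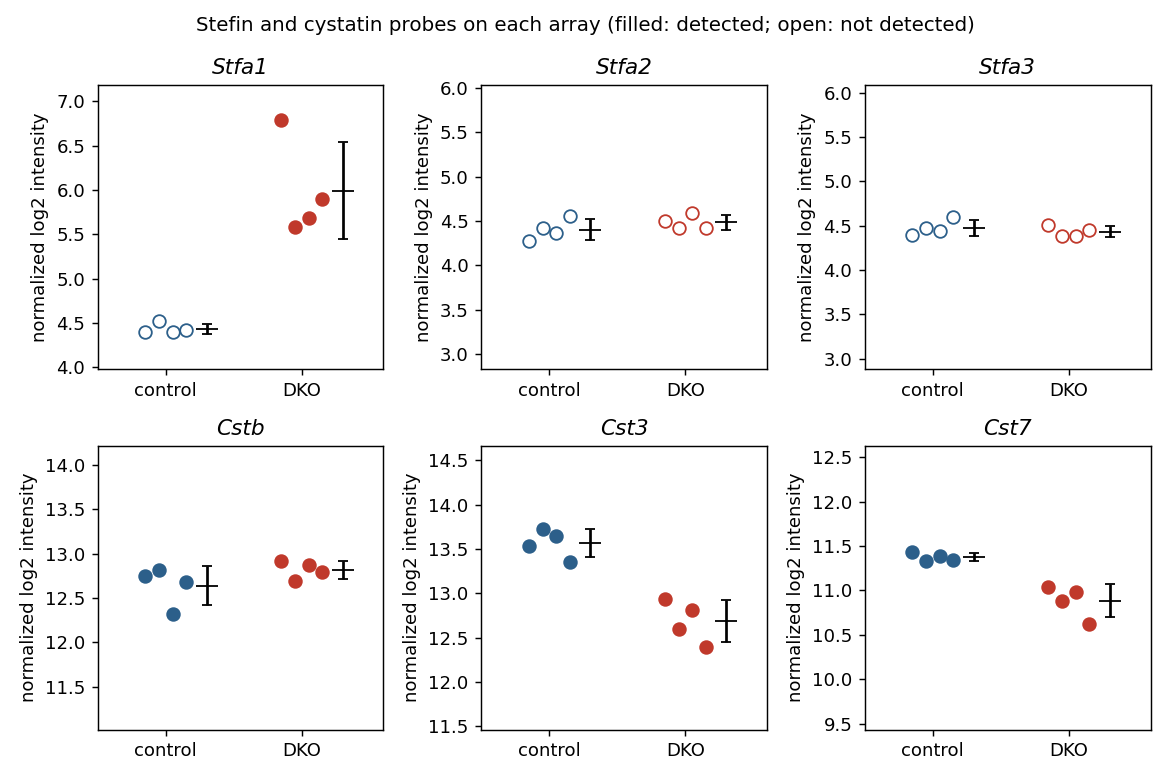
Normalized log2 intensity of each stefin and cystatin probe on each array, with panels of equal height in log2 units. Points are arrays in replicate order, filled where the detection p-value was under 0.05, and bars give the mean and SD over 4 arrays. Stfa1 was detected on the DKO arrays alone, Stfa2 and Stfa3 on no array, and the Cst3 and Cst7 values of the groups did not overlap.

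Stfa1, a stefin A family gene of the chromosome 16 cluster, was read by probe ILMN_2988931. Its raw intensities were 141.7, 164.6, 158.9 and 175.2 on DKO arrays 1 to 4 and 125.2, 142.1, 124.8 and 124.9 on control arrays 1 to 4. The detection p-values were 0, 0.0276, 0.00251 and 0 in DKO and between 0.393 and 0.771 in control. The probe was therefore detected on 4 of 4 DKO arrays and 0 of 4 control arrays, with raw values only slightly above the array background even in DKO.

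After background correction and quantile normalization, Stfa1 read 6.79, 5.59, 5.69 and 5.90 in DKO and 4.40, 4.52, 4.40 and 4.42 in control. Every DKO array was above every control array, with DKO 1 the highest, although DKO 1 had the lowest raw value of the DKO arrays and was the dimmest array. Because no control array measured it above background, the change under this background correction is a bound of at least 1.96-fold higher in DKO, with measured means of 5.99 ± 0.55 (SD, n = 4) and 4.43 ± 0.06 (SD, n = 4) (limma adjusted p = 0.00128). The fitted log2 difference of 1.56 (SE 0.23) fell to 1.29 without DKO 1, to 0.47 with the authors' processed values and to 0.51 when background was not corrected, all past the threshold. It was 0.88 with normexp without controls. The raw group means, which include the background, differed by 1.24-fold. The direction was kept in each of these settings, while the bound and the size of the fitted value hold for the background correction used, since the values without it lie below the bound.

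Stfa2 and Stfa3, close relatives of Stfa1 in the same cluster, were detected on 0 of 8 arrays. Stfa2 raw intensities were 107.6, 124.7, 129.2 and 125.9 in DKO and 114.8, 136.0, 122.2 and 132.0 in control. Those of Stfa3 were 107.9, 121.9, 119.8 and 127.4 in DKO and 125.0, 139.3, 126.9 and 133.8 in control. The groups overlapped for both probes, and neither was tested. These signals were not distinguishable from background on any array, which does not show that the transcripts were absent.

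The chromosome 16 stretch from Csta1 to Stfa3 holds 12 protein-coding genes in RefSeq, of which 8 had a probe. Among those 8, Stfa1 alone was detected on any array. The 7 other probes, which read Csta1, Cstdc4, Csta3, Csta2, Cstdc6, Stfa2 and Stfa3, had raw intensities from 102.1 to 152.8 and detection p-values of 0.102 or more on every array. Their normalized log2 differences, with no test, lay between -0.16 and 0.13. Stfa1 and its relatives are similar genes. The probe letters are not in the sources used here, so whether the Stfa1 probe also reads Stfa2l1 or another relative without a probe, such as Cstdc3 or Cstdc5, was not tested.

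**Figure D2:**
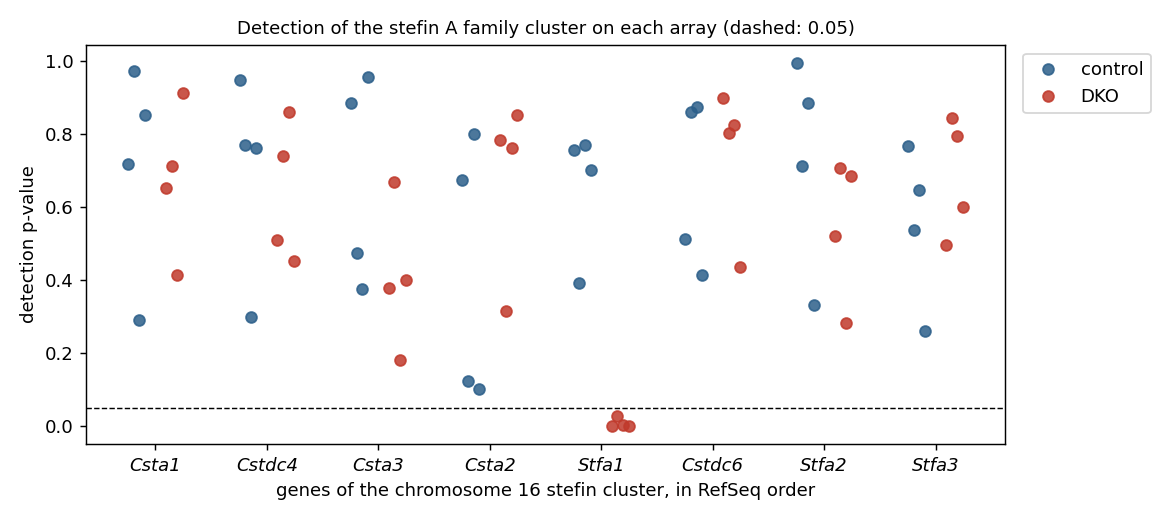
Detection p-value on each array for the 8 genes of the chromosome 16 stefin cluster that had a probe, in RefSeq order, with control arrays in blue, DKO arrays in red and the threshold of 0.05 dashed. The 4 DKO values of Stfa1 lie between 0 and 0.0276, and every other point lies at 0.102 or above.

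Cstb encodes stefin B, a widely expressed cytosolic and nuclear inhibitor whose loss in humans causes a progressive myoclonus epilepsy. Its probe, ILMN_2700715, was detected on all 8 arrays, with raw intensities of 4650.1, 5951.0, 7695.2 and 7737.5 in DKO and 7258.5, 9648.4, 5558.5 and 6887.6 in control. Normalized values were 12.91, 12.69, 12.87 and 12.80 in DKO and 12.74, 12.81, 12.32 and 12.68 in control. The groups overlapped on both scales, and the low control value was that of array 3.

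Cstb did not pass, at a difference of 0.18 (SE 0.14, limma adjusted p = 0.388). Its 95% interval ran from -0.13 to 0.49 on the log2 scale, that is from 0.913-fold to 1.40-fold of control. With arrays aligned by medians the value turned to -0.09 (limma adjusted p = 0.845), which is 0.32 above the median of all probes under that alignment. Without control 3 it was 0.07.

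Cst3 encodes cystatin C, the main secreted cystatin of body fluids. Its probe, ILMN_1257575, was detected on all 8 arrays and read 4724.1, 5640.0, 7465.3 and 6085.1 in DKO and 12715.3, 16841.8, 12860.0 and 10892.4 in control before normalization. After normalization the DKO arrays read 12.94, 12.59, 12.81 and 12.40 and the control arrays 13.53, 13.73, 13.65 and 13.36. Every DKO array lay below every control array on both scales.

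Its mean was 13.57 ± 0.16 (SD, n = 4) on the control arrays, compared with 12.69 ± 0.24 (SD, n = 4) on the DKO arrays. Cst3 fell 1.84-fold, with a log2 difference of -0.88 (SE 0.15, limma adjusted p = 0.0027) and a 95% interval from -1.22 to -0.54. Over the other processing settings the log2 difference ranged from -1.08 to -0.88, and over the fits that left out an array from -0.97 to -0.79, past the threshold in every one of them. With arrays aligned by medians it lay at -0.68 relative to the median of all probes. The raw group means differed by 2.23-fold, a larger ratio that still holds the difference in overall brightness between the arrays.

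Cst7 encodes cystatin F, an inhibitor stored in granules and lysosomes of leukocytes. Its probe, ILMN_1244891, was detected on all 8 arrays, with raw intensities of 1088.6, 1757.6, 2098.4 and 1907.8 in DKO and 2940.0, 3646.6, 3034.7 and 2841.5 in control. Normalized values were 11.04, 10.89, 10.98 and 10.63 in DKO and 11.44, 11.33, 11.39 and 11.35 in control. The groups did not overlap on either scale, and the control arrays lay closer together than the DKO arrays.

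Cst7 averaged 11.38 ± 0.05 (SD, n = 4) on the control arrays, compared with 10.88 ± 0.18 (SD, n = 4) on the DKO arrays. It fell 1.41-fold, with a log2 difference of -0.49 (SE 0.13, limma adjusted p = 0.0202) and a 95% interval from -0.78 to -0.21. The call was lost without control 1 (limma adjusted p = 0.0601) and without control 2 (limma adjusted p = 0.0547), at log2 differences of -0.47 and -0.51. With arrays aligned by medians the difference of Cst7 was -0.85, or -0.45 relative to the median of all probes.

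**Figure D3:**
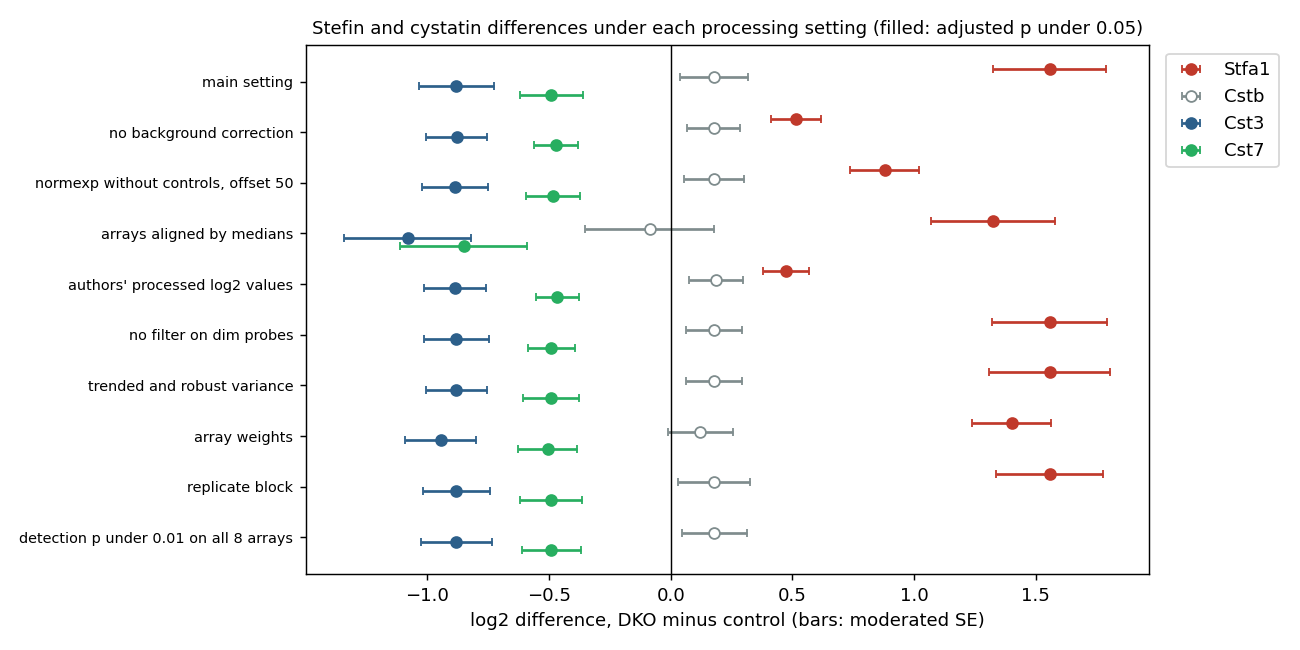
Log2 difference, DKO minus control, of the 4 tested stefin and cystatin probes under the main setting and 9 other settings, with bars for the moderated SE and filled points for an adjusted p under 0.05. Cst3 and Cst7 stay below 0, Stfa1 moves between 0.47 and 1.56, and Cstb lies near 0 with its value at -0.09 when arrays are aligned by medians. Stfa1 has no point under the strictest detection filter, which it did not pass.

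Among the DKO arrays, DKO 1 after normalization had the highest value for Stfa1, Cstb, Cst3 and Cst7 alike, while its raw value was the lowest of the DKO arrays for each of them. Both held for 27.2% of all tested probes, and DKO 1 had the lowest raw value of the DKO arrays for 98% of them. Cst3 and Cst7 both ran from DKO 1 at the top through DKO 3 and DKO 2 to DKO 4 at the bottom, as did 3.63% of tested probes. With DKO 1 left out, the log2 difference of Cst3 was -0.97 and that of Cst7 was -0.54.

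A shift of a whole array cancels in the difference between a pair of members on it. Relative to Cst3, Cstb shifted by 1.06 on the log2 scale from control to DKO. Measured from the control mean, the DKO arrays lay from 0.90 to 1.32 and the control arrays from -0.40 to 0.25. Relative to Cst7, Cstb shifted by 0.67, and Cst3 shifted against Cst7 by -0.39, with DKO arrays from -0.48 to -0.29 and control arrays from -0.18 to 0.20. The groups did not overlap in these comparisons, which show unequal change of the probes and not which of them changed.

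The targets of these inhibitors were read from a list of 11 cysteine protease genes, the cathepsins Ctsb, Ctsc, Ctsf, Ctsh, Ctsk, Ctsl, Ctso, Ctss, Ctsw and Ctsz and the legumain gene Lgmn. All 11 were on the array and 5 were tested. Of these, 3 fell, against 12.4% of all tested probes, 1 rose, against 10.4%, and 1 did not pass. Their median log2 difference was -0.85 against -0.008 over all tested probes.

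Ctsh, a lysosomal aminopeptidase, fell most, from 10.40, 10.80, 10.85 and 10.29 in control to 7.33, 8.52, 7.86 and 7.88 in DKO, a 6.45-fold drop (-2.69 in log2 units, SE 0.24, limma adjusted p = 8.08e-05). Ctss, the protease that trims the invariant chain in antigen-presenting cells, was detected on 1 of the 4 DKO arrays and fell 3.56-fold (-1.83 in log2 units, SE 0.16, limma adjusted p = 8.41e-05). Ctss stayed past the threshold at -0.54 with the authors' processed values and at -0.60 when background was not corrected. Ctsb, the cathepsin B gene, fell 1.81-fold, with DKO arrays between 11.29 and 11.93 and control arrays between 12.36 and 12.64 (log2 difference -0.85, SE 0.16, limma adjusted p = 0.00393).

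Ctsz, a lysosomal carboxypeptidase, went the other way and rose 1.66-fold by its probe with the higher mean, at 12.19, 12.24, 11.95 and 12.09 in DKO and 11.38, 11.46, 11.49 and 11.20 in control (log2 difference 0.73, SE 0.13, limma adjusted p = 0.0028). Its other probe differed by 0.68 and also passed. The call of Ctsz was lost with arrays aligned by medians, at 0.45 (limma adjusted p = 0.209), or 0.85 relative to the median of all probes. Ctsc, which activates granule serine proteases and is a target of cystatin F, did not pass by any of its 3 probes, the one with the highest mean lying at -0.33 (SE 0.16, limma adjusted p = 0.152).

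Within arrays, the shift of Cst3 against Ctsb was -0.03, and the groups overlapped. Cstb shifted by 1.03 against Ctsb and by 2.87 against Ctsh. Ctss was left out of these comparisons, since 3 of the 4 DKO arrays did not detect it. Cst7 shifted by 2.20 against Ctsh and by -0.16 against Ctsc, and the groups overlapped for the latter. Against Ctsz, Cst3 shifted by -1.61 and Cst7 by -1.22.

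**Figure D4:**
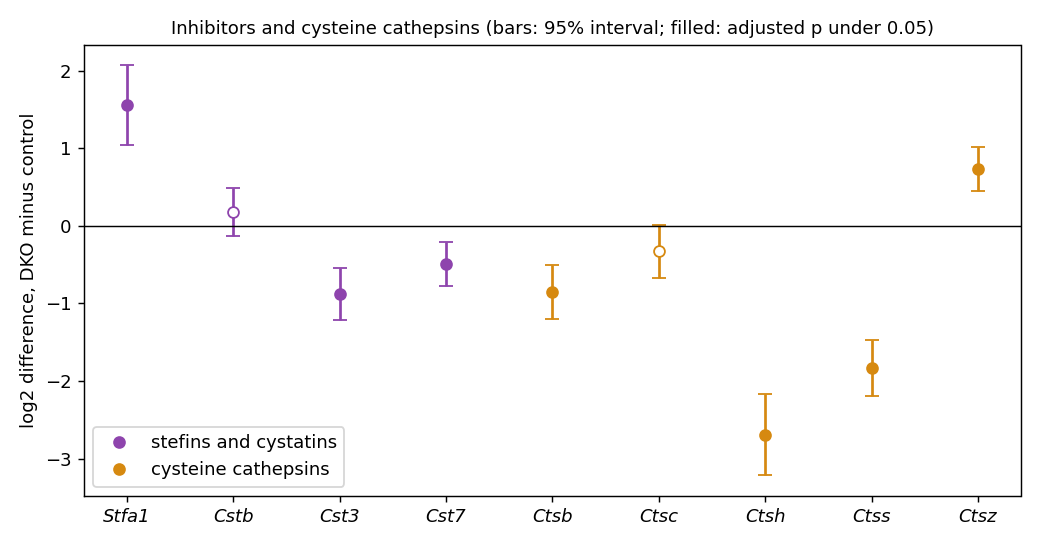
Log2 difference, DKO minus control, of the tested stefin and cystatin probes in purple and of the 5 tested cysteine cathepsin genes in orange, with 95% intervals, 4 arrays per group and filled points for an adjusted p under 0.05. Ctsh lies lowest at -2.69, Ctss at -1.83 rests on DKO arrays of which 1 detected it, Ctsz lies above 0 at 0.73, and the fitted value of Stfa1 rests on control arrays where it was not detected.

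The wider cystatin superfamily was represented by 33 probes, the members included, and 7 of these were detected on at least 1 array. Besides the 4 tested members, those were a Cst11 probe and the probes of Camp and Ngp, neutrophil granule genes with a cystatin-like domain that also stand on the late neutrophil list. Cst11 differed by -0.13 (SE 0.17), Camp by -0.40 (SE 0.40) and Ngp by 0.98 (SE 0.48), with limma adjusted p of 0.619, 0.51 and 0.165. Of the 24 other family genes listed, 18 were on the array, 3 were tested and 0 passed in limma, with 0 also at an unadjusted p under 0.05.

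Of 7 tested genes of other inhibitors of myeloid proteases, 1 was higher, 1 lower and 5 not past the threshold, at a median log2 difference of 0.07. Those counts lie near the shares over all tested probes, 10.4% higher and 12.4% lower. Slpi, the secretory inhibitor of neutrophil elastase, fell 2.96-fold, from between 13.01 and 13.32 in control to between 11.35 and 11.78 in DKO (log2 difference -1.57, SE 0.13, limma adjusted p = 7.17e-05). Wfdc21, a gene of the same whey acidic protein family, rose 2.43-fold, to between 9.50 and 10.37 in DKO from between 8.16 and 8.82 in control (log2 difference 1.28, SE 0.21, limma adjusted p = 0.00222). Serpinb1a, an intracellular inhibitor of elastase and cathepsin G, differed by 0.48 (SE 0.17, limma adjusted p = 0.058), and Serpinb6a by -0.55 (SE 0.19, limma adjusted p = 0.0554). Among 8 granule and lysosomal proteases of other classes, 0 rose and 2 fell, the aspartic proteases Ctse at -1.21 in log2 units (-0.60 with the authors' processed values) and Napsa at -0.76, and the granule serine proteases Elane, Prtn3 and Ctsg differed by 0.03, 0.11 and 0.05 and did not pass.

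Some markers of maturing neutrophils and all tested markers of monocytes moved beside these results. Of 17 late neutrophil markers listed, 9 were tested, of which 5 passed as higher and 0 as lower, against 10.4% and 12.4% of all tested probes. The 4 that did not pass were Ltf at -0.38, Camp at -0.40, S100a8 at -0.04 and Ngp at 0.98 in log2 units. Those that passed were Lcn2 at 3.15, Cd177 at 2.31, Chil3 at 2.14, Anxa1 at 1.09 and S100a9 at 0.66. Of those 5, Anxa1 lost its call with arrays aligned by medians, and S100a9 lost it there, with array weights, with no filter on dim probes and in 6 of the 8 fits that left out an array. The summed normalized intensity of all 9 tested, to which the bright S100a8 at a difference of -0.04 belongs, ran from 43386 to 58198 on the DKO arrays and from 36258 to 39932 on the control arrays. Such a sum follows its brightest probes and does not weigh the 9 equally. Of these, S100a9 averaged 14.09 in DKO and 13.43 in control on the log2 scale, and Lcn2 12.42 and 9.27. Mmp8, Mmp9, Cxcr2, Retnlg, Itgam and Padi4 were detected on fewer than 4 arrays. Of 14 monocyte and macrophage markers listed, 9 were tested and all 9 fell, against 12.4% of all tested probes. All 9 were detected on every control array, but 5 of them on every DKO array. Klf4 and Ctss were detected on 1 DKO array, Adgre1 on 2 and Cx3cr1 on 3, so their falls rest in part on DKO arrays that did not detect them. The summed intensity of the 9 ran from 3234 to 5315 in DKO and from 10649 to 14511 in control. Ctss stands on both that list and the cathepsin list. The part of these markers in the results for Stfa1, Cst3, Cst7 and the cathepsins was not tested, and in these bulk samples fewer cells of a type and less RNA per cell cannot be told apart.

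Among myeloid transcription factors, Irf8, which drives monocyte and dendritic fate, fell 12.9-fold and Klf4, which promotes monocyte differentiation, fell by 2.70 on the log2 scale, with Klf4 detected on 1 of the 4 DKO arrays. With the authors' processed values Irf8 differed by -2.76 and Klf4 by -1.01 on that scale. Both genes also stand on the monocyte and macrophage list, by the same probes, so these falls were already counted there. Of the 7 tested, 2 were thus lower and 0 higher, against 12.4% and 10.4% of all tested probes. The other 5 tested did not pass by their probe with the higher mean. Of these, Cebpb differed most, by 0.50 (SE 0.20, limma adjusted p = 0.089). Cebpe, a factor of late granulocyte development, differed by 0.33 (SE 0.14, limma adjusted p = 0.113), Cebpa by 0.36, Gfi1 by 0.21 and Spi1, which encodes PU.1, by 0.49. A further Cebpe probe differed by 0.61 and passed (limma adjusted p = 0.0452).

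The labelled cell type was checked against GMP and primary granule markers. All 8 of those measured were detected on all 8 arrays, including Mpo, Elane, Prtn3 and Ctsg. By the probe with the highest mean, 0 rose and Cd34, part of the sort, fell 2.68-fold. The brightest Mpo probe differed by 0.19 and did not pass, with its highest raw value on DKO 1, the dimmest array. The 2 other Mpo probes differed by -0.63 and -1.04 and passed. Whether the brightest signals were compressed was not tested. Of markers of other cells, 3 of 5 tested erythroid genes were lower, Epor, Slc4a1 and Ank1, all 3 above background on no DKO array. Each entered the test through its 4 control arrays alone, so its place among the tested probes already required a higher signal there. Their bounds were at least 1.06-fold, 1.44-fold and 1.14-fold lower in DKO. The calls of Epor and Ank1 were lost when background was not corrected and in some fits that left out an array. Cd79b on the lymphoid list and Cd74 on the dendritic list, the latter above background on no DKO array, fell, 1 of 2 tested genes in each. Cd74 likewise entered the test through its control arrays alone, with a bound of at least 1.83-fold lower in DKO. In limma, 0 of 4 megakaryocyte and 0 of 6 mast cell or basophil genes passed, with 1 and 2 at an unadjusted p under 0.05. The shares over all tested probes, beside which these marker counts stand, were 10.4% higher and 12.4% lower.

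The genes most like a member over the 8 arrays were found by the root mean square difference between values centred on each probe's own mean, over 8123 probes detected on all 8 arrays. For Cst3 they were Cd79b at 0.103, Zfp623 at 0.136 and Mtmr14 at 0.138 log2 units. These differed between the groups by -0.77, -0.83 and -0.94, beside -0.88 for Cst3. Genes picked for closeness to a member over the same 8 arrays differ between the groups by a similar amount through that choice alone. For Stfa1, whose control values are background, they were Id1 at 0.127, Slfn2 at 0.190 and 1110008P14Rik at 0.193 log2 units, with differences of 1.40, 1.55 and 1.40. Cst7 and Cstb varied by an SD under 0.3 over the 8 arrays and were not compared in this way.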

How the data were processed

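Summarised bead intensities on a linear scale were deposited for 8 arrays, neither background-subtracted nor normalized as their values show, with a detection p-value beside each per the file headers. The submitters' processing notes name GenomeStudio and state no version and no role, and no source used here records further upstream steps. The authors' processed log2 table, whose differences between arrays followed those of quantile-normalized log2 intensities (r from 0.9988 to 0.9995), was used as an alternative; its column medians lay from -0.0044 to -0.0005, its direction follows the intensities, and its centring is unstated. The intensity table also has 10 empty columns.

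Normalization used neqc from limma 3.58.1 under R 4.3.3 (normexp with controls inferred from the detection p-values, offset 16, quantiles). Probes detected at p under 0.05 on 4 or more of 8 arrays were tested with lmFit and eBayes, without covariates, and Benjamini-Hochberg adjustment over 10856 probes at 0.05. A probe detected on 0 arrays of a group has a bound: the bright group's mean against, per array, the lowest signal among detected probes or its own signal, whichever was higher. Arrays give no counts, and their number limits the precision.

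Symbols came from the platform annotation (23978 probes with 1 symbol), updated through gene identifiers to RefSeq of GRCm38.p6. List genes are given by their tested probe with the highest mean, and the same rule named the genes of each list and the 3 most similar to a member. Members and lists were chosen with earlier results of these data known. Alternatives were other background corrections, median alignment, the authors' values, other filters, array weights, a trended robust variance, a replicate block, and leaving out each array without renormalizing. No slide is given for the arrays, so it was not used as a block.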

Additional observations from a re-analysis of the deposited data

Results flagged for a closer look

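Of 22 groups of 4 arrays examined, for the 6 members and the 5 tested cathepsins, 1 held an array set apart from the rest. Control 2 read 4.52 for Stfa1, with the nearest of the other control arrays at 4.42 and the lowest at 4.40. The gap was 0.833 of the group's range, just above the critical value for 4 samples. All 4 control values were below detection. Chance flags about 1 in 20 such groups.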

How the results depend on the processing

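The calls of Stfa1 and Cst3 and the lack of a call for Cstb held under every alternative that gave a value. Except in the fit with no filter on dim probes, Stfa1 entered each of these through its DKO arrays alone, which already required a higher signal there. Stfa1 ranged from 0.47 to 1.56 on the log2 scale and from 1.29 to 1.69 over the fits that left out an array. With probes required to be detected at 0.01 on all 8 arrays, Stfa1 was not tested and 0 members were higher. Cst7 ranged from -0.54 to -0.41 with an array left out, and its call was lost without control 1 or control 2, which left 1 member lower in place of 2. With arrays aligned by medians, Cstb turned to -0.086, 0 cathepsins were higher, and over the array 148 probes were higher and 2335 lower. Over fits without an array, 665 to 1161 probes were higher and 864 to 1354 lower. The fewest came without control 2, and without control 1 742 were higher. The causes of these changes were not tested.

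Samples with the same replicate number did not pair throughout: the correlations of their deviations from the group means were 0.19, 0.03, -0.11 and 0.20. Samples 1 and 4 of DKO correlated best with their own number and samples 2 and 3 did not, which leaves a pairing unresolved. With the replicate number as a block, 1102 probes were higher and 1318 lower, Cst7 stayed at -0.49 (limma adjusted p = 0.0344), and no member's or cathepsin's call changed. Dim probes such as Stfa1 limit what can be measured, since their fitted change rests on the background correction.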
